A study of Mus musculus with 6 samples.

Results

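The genes described here encode matricellular and elastic fibre proteins of the extracellular matrix. They are the osteopontin gene Spp1, the osteonectin gene Sparc, the thrombospondin genes Thbs1 and Thbs2, the tenascin gene Tnc, the periostin gene Postn, the fibronectin gene Fn1, the versican gene Vcan, the fibrillin gene Fbn1 and the elastin gene Eln. They were taken by symbol, 10 of the 24421 gene rows that each sample holds. Matricellular proteins are secreted into the matrix but bear little load. They bind integrins, growth factors and collagen, and many of them are low in resting adult tissue and high in wounds. Elastic fibres consist of an elastin core laid down on a scaffold of fibrillin microfibrils. In the gut wall, fibroblasts and smooth muscle cells make most of this matrix, and macrophages are a further known source of osteopontin.

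RNA from colon tissue of C57BL/6 mice, labelled as 7 weeks of age, was sequenced in 2 groups of 3 samples. The first, called DSS here, was labelled as chronic colitis brought on by dextran sulfate sodium, a polysaccharide that injures the colonic epithelium when it is drunk, and the other was labelled control. The series asked whether acetylation of histone H3 at lysine 27 is involved in intestinal inflammation, and expression alone is described here. The labels used here give neither the dose nor the cycles of DSS, and nothing in them says that each sample is a different animal. The p-values therefore measure the spread between these samples alone, which may be technical.

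Levels are given as FPKM, a count of fragments divided by transcript length and by the size of the library, so that genes can be compared. Their sum per sample was 629036 to 678076 in DSS and 609544 to 638096 in control colon. Read depth is unknown. Gapdh, a gene of every cell, had listed levels of 0, 21.4 and 36.1 FPKM in DSS 1, 2 and 3, against 2.00, 0.117 and 0.145 FPKM in control 1, 2 and 3, so a listed value near 0 can be a failed estimate. The tissue label was met by its markers. All 8 colon epithelial markers were tested, and they summed to 6552 to 14608 FPKM in DSS colon and 9599 to 13520 FPKM in control colon, with 2 of them lower in DSS. All 6 neutrophil markers tested were higher in DSS, with sums of 4090 to 6964 FPKM in DSS colon and 6.69 to 29.5 FPKM in control colon. DSS 2 stood apart from DSS 1 and DSS 3 in many of the values below, and the fold changes of the 10 genes are also given without it.

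Of the 10 genes, Spp1 rose in DSS colon and the other 9 did not pass the test. A gene was called when its adjusted p, from limma over all 12348 tested genes with Benjamini-Hochberg adjustment, was under 0.05. By this rule 6.34% of all tested genes were called higher in DSS and 2.56% lower, so 1 of 10 called higher and 0 of 10 called lower is near that background. In numbers that is 783 higher and 316 lower, against 544 and 467 under upper-quartile scaling and 517 and 503 under median-of-ratios scaling, which moved the median log2 fold change of all tested genes by -0.12 and -0.14. The number called higher over all genes also depended on single samples, with 314 without DSS 3, 322 without control 1, 209 without control 2 and 213 without control 3, and the number called lower was 606 without DSS 1, 163 without DSS 3, 136 without control 1, 79 without control 2 and 83 without control 3. The 10 genes had a median log2 fold change of 0.27, beside 0.13 over all tested genes. All 10 were tested. Spp1 reached 1 FPKM in the 3 DSS samples and in control 1, and the others reached it in all 6 samples.

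**Figure D1:**
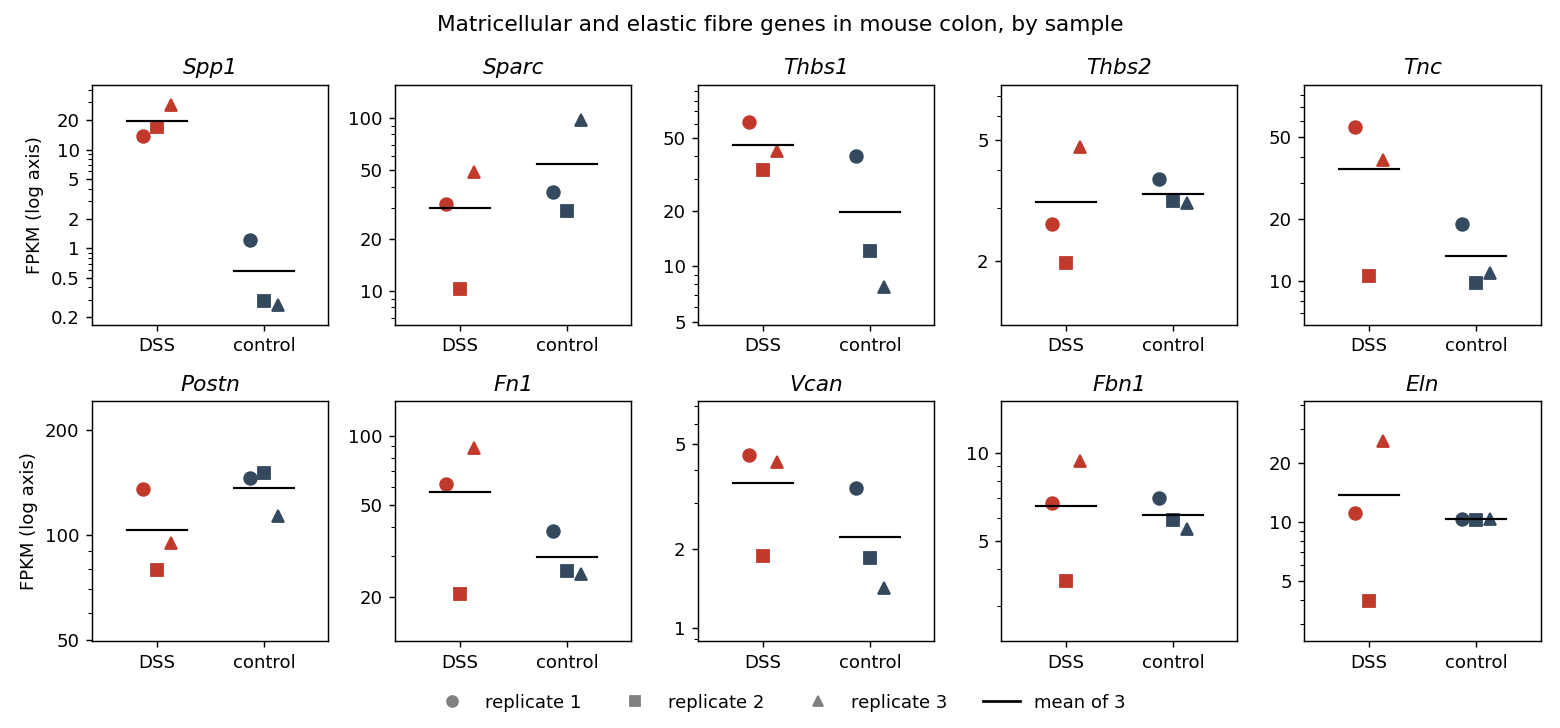
Level of each of the 10 genes in FPKM, on a log axis that differs between panels, with 1 point per sample, DSS left of control, and a bar at the mean of 3. The DSS points of Spp1, 13.7 to 28.2 FPKM, lie above its control points, 0.268 to 1.21 FPKM, and in the other 9 panels the groups overlap.

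Spp1 encodes osteopontin, a secreted phosphoglycoprotein that binds integrins and CD44 and is made by macrophages, bone cells and some epithelia. Its level was 13.7, 16.9 and 28.2 FPKM in DSS 1, 2 and 3, against 1.21, 0.295 and 0.268 FPKM in control 1, 2 and 3. Every DSS sample lay above every control sample, which was so for 25.6% of all tested genes, and none of the 10 genes had every DSS sample below every control sample, as 9.51% of tested genes did. The means were 19.6 ± 7.64 FPKM in DSS colon and 0.592 ± 0.537 FPKM in control colon (SD, n = 3 each), a ratio of means of 33.1. On the log2(FPKM + 1) scale, which understates changes of genes this low, the fold change was 3.68 ± 0.32 SE (95% interval 2.93 to 4.44, limma adjusted p = 0.00116). The call held under all 15 alternatives, with adjusted p between 0.000555 and 0.0105, and the log2 fold change without DSS 2 was 3.75. Adding 0.5 or 0.1 FPKM in place of 1 gave 4.24 and 5.03, the second of these outside the interval. The size of the change and the ratio of means thus rest on low control levels, which can be failed estimates. Spp1 was the member with the lowest level in control colon and the sixth of the 10 in DSS colon. In whole tissue, more cells that make a transcript and more transcript per cell cannot be told apart. The 10 macrophage and monocyte markers, all tested and 2 of them called higher, summed to 696 to 895 FPKM in DSS colon and 486 to 592 FPKM in control colon, with none at 0 in all samples. Their part in the level of Spp1 was not tested. Spp1 lies on chromosome 5, 104435118 to 104441050, on the + strand of GRCm38. Of its exonic bases 18.8% (309) overlap Gm42793, an unverified gene on the same strand, and reads from these bases cannot be told apart between the genes.

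Spp1 belongs to a small family of phosphoglycoproteins known from bone and teeth, whose other genes are Ibsp, Dmp1, Dspp and Mepe. None of these 4 reached the level for testing. Ibsp and Dspp were listed at 0 in all 6 samples, and Mepe at 0 in all but control 2, where it had 0.0103 FPKM. Dmp1 had 0.533, 0.205 and 0.205 FPKM in DSS 1, 2 and 3, against 1.98, 2.21 and 0.497 FPKM in control 1, 2 and 3, so the groups overlapped. Spp1 was thus the family member with a level above 1 FPKM in DSS colon.

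The sequence upstream of the start site is shown for Spp1, the gene that rose, for Postn, the most abundant of the 10, and for Tnc, which passed the test once DSS 2 was left out. Each window holds the 250 bases before a RefSeq start site in GRCm38.p6, 5′ to 3′ on the gene's strand. Capitals mark exact matches on either strand to any of the motifs that follow. The TATA box was searched as the letters TATAAA. The site of the AP-1 factors was searched as the letters TGANTCA. For the core of the Runx factors the letters were ACCACA. The box named for its letters CCAAT was searched as such, and the GC box as the letters GGGCGG. No match overlapped another in the 3 windows shown. Such windows were at hand for 7 of the 10 genes. Spp1, Postn and Tnc have 2 start sites each in the table, and the one nearer to the gene's start in GENCODE is shown. The windows lie at chr5:104434861-104435110 (+ strand) for Spp1, chr3:54360857-54361106 (+ strand) for Postn and chr4:64047016-64047265 (- strand) for Tnc.
Spp1: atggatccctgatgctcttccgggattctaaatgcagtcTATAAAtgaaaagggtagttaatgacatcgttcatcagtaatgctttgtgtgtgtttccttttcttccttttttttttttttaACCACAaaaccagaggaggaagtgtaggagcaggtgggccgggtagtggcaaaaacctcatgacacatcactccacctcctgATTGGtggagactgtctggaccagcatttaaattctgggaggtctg
Postn: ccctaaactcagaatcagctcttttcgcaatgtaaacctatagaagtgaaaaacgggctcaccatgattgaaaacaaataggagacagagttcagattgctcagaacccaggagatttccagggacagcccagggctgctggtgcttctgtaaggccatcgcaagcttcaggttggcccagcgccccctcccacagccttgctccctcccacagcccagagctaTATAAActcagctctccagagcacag
Tnc: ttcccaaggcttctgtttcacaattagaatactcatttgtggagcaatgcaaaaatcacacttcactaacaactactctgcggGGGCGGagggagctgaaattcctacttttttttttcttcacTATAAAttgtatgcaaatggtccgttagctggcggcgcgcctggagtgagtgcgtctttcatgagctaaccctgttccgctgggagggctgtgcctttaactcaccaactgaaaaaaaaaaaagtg

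The Spp1 window held TATAAA with its first base 211 bases before the start, ACCACA at 128 bases and CCAAT, as its reverse complement, at 46 bases. In the Postn window the single match was TATAAA at 26 bases before the start. The Tnc window held GGGCGG at 167 bases and TATAAA at 126 bases. None of the 3 windows held TGANTCA. The windows of the other start sites of Spp1 and Postn held no match to any of the motifs, and that of Tnc, which overlaps the window shown, held the same GC box and TATA box at 246 and 205 bases. Over the 32851 windows of the same length in the table, 12.4% held the TATA box, 6.75% the AP-1 site, 14.0% the Runx core, 33.8% the CCAAT box and 32.7% the GC box. These matches describe the letters and were not tested as binding sites.

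Thrombospondins and tenascin C are matricellular glycoproteins that modulate how cells hold on to the matrix. Thbs1 encodes thrombospondin-1, which activates latent TGF-beta and inhibits vessel growth. Thbs1 stood at 60.9, 33.5 and 42.5 FPKM in DSS 1, 2 and 3, against 39.9, 12.1 and 7.70 FPKM in control 1, 2 and 3. Control 1 lay above DSS 2, so the groups overlapped, and it was the sample that set the spread of the controls. The mean was 45.6 ± 14.0 FPKM in DSS colon and 19.9 ± 17.4 FPKM in control colon (SD, n = 3 each), with a log2 fold change of 1.44 ± 0.56 SE (95% interval 0.11 to 2.77, limma adjusted p = 0.150, unadjusted p = 0.0373) and of 1.64 without DSS 2. Without control 1 it passed, with a log2 fold change of 2.09 and adjusted p = 0.0235 (0.0235 to 0.339 over all alternatives), where 2.61% of all tested genes were called higher. Leaving out the highest control lowers the control mean by construction.

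Tnc encodes tenascin C, an endogenous activator of TLR4 that is known to appear at sites of injury. Its level was 55.8, 10.6 and 38.5 FPKM in DSS 1, 2 and 3, against 19.0, 9.83 and 10.9 FPKM in control 1, 2 and 3. DSS 1 and DSS 3 lay above all controls, and DSS 2 lay within the range of the controls. The log2 fold change was 1.11 ± 0.59 SE (95% interval -0.28 to 2.51, limma adjusted p = 0.264). Leaving out DSS 2 brought Tnc past the threshold, with a log2 fold change of 1.79 and adjusted p = 0.0234 (0.0234 to 0.496 over all alternatives). The log2 fold change of Tnc was 0.64 without DSS 1 and 0.91 without DSS 3, so it depended on each of the DSS samples.

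Thbs2, the other thrombospondin gene whose product binds matrix proteases for uptake, was low in both groups. Thbs2 had 2.65, 1.98 and 4.75 FPKM in DSS 1, 2 and 3, against 3.72, 3.17 and 3.12 FPKM in control 1, 2 and 3. DSS 3 lay above the controls and the other DSS samples below them, and the log2 fold change was -0.12 ± 0.26 SE (95% interval -0.73 to 0.48, limma adjusted p = 0.789), and without DSS 2 it was 0.082. In GRCm38, Thbs1 lies on chromosome 2, 118111876 to 118127133 (+ strand), Thbs2 on chromosome 17, 14665500 to 14694235 (- strand), and Tnc on chromosome 4, 63959785 to 64047015 (- strand).

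Fibronectin and versican form the loose matrix through which cells move after injury. Fn1 encodes fibronectin, which cells assemble into fibrils through integrin alpha5 beta1. Fn1 had 61.9, 20.5 and 87.9 FPKM in DSS 1, 2 and 3, against 38.4, 25.8 and 25.1 FPKM in control 1, 2 and 3. DSS 1 and DSS 3 lay above the controls and DSS 2 below them. The means were 56.8 ± 34.0 FPKM in DSS colon and 29.8 ± 7.49 FPKM in control colon (SD, n = 3 each), and the log2 fold change was 0.71 ± 0.51 SE (95% interval -0.49 to 1.91, limma adjusted p = 0.401). That fold change was 0.53 without DSS 1 and 0.28 without DSS 3. Without DSS 2 it was 1.31, with adjusted p = 0.0301 (0.0301 to 0.773 over all alternatives). In that fit of 5 samples 3 of the 10 genes were called higher, Spp1, Tnc and Fn1, beside 5.58% of all tested genes. DSS 2 was left out because its values stood apart, and it was the lowest DSS sample in 9 of the 10 genes. Leaving it out raises the DSS means of those genes by construction, so nothing is concluded from this count.

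Vcan, which encodes the hyaluronan-binding proteoglycan versican, had 4.56, 1.87 and 4.30 FPKM in DSS 1, 2 and 3, against 3.40, 1.83 and 1.42 FPKM in control 1, 2 and 3. As for Tnc, DSS 1 and DSS 3 were above every control and DSS 2 was among them. The log2 fold change of Vcan was 0.50 ± 0.33 SE (95% interval -0.27 to 1.26, limma adjusted p = 0.363). That fold change was 0.32 without DSS 1 and 0.36 without DSS 3. Without DSS 2 it was 0.80, with adjusted p = 0.129 (0.129 to 0.670 over all alternatives), so no alternative brought it past the threshold. Fn1 lies on chromosome 1, 71585520 to 71653200 (- strand), and Vcan on chromosome 13, 89655312 to 89742509 (- strand).

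Periostin and osteonectin, which bind collagen and guide its assembly into fibrils, had lower means in DSS than in control colon, without passing the test. Postn, the periostin gene, had 135, 79.6 and 95.03 FPKM in DSS 1, 2 and 3, against 146, 151 and 114 FPKM in control 1, 2 and 3. DSS 2 and DSS 3 lay below the controls and DSS 1 lay among them. Its means were 103 ± 28.8 FPKM in DSS colon and 137 ± 20.1 FPKM in control colon (SD, n = 3 each), and its log2 fold change was -0.43 ± 0.22 SE (95% interval -0.94 to 0.09, limma adjusted p = 0.253, 0.0636 to 0.471 over all alternatives), and without DSS 2 it was -0.26. Postn lies on chromosome 3, 54361109 to 54391037 (+ strand).

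Sparc, which encodes osteonectin (also called SPARC), had 31.5, 10.2 and 48.8 FPKM in DSS 1, 2 and 3, against 37.3, 28.9 and 96.7 FPKM in control 1, 2 and 3. The highest value came from control 3 and the lowest from DSS 2, and the other 4 samples overlapped. The log2 fold change of Sparc was -0.88 ± 0.65 SE (95% interval -2.42 to 0.67, limma adjusted p = 0.418), and it lay between -1.34 and -0.26 over the alternatives, the second of these without DSS 2. Of the 10 genes Sparc had the widest interval, so changes of over 2 log2 units downward remain within it. Sparc lies on chromosome 11, 55394500 to 55423183 (- strand).

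The elastic fibre genes Eln and Fbn1 had nearly equal fitted levels in both groups, with a far wider spread in DSS. Eln encodes tropoelastin, the soluble precursor of the fibre core. Eln had 11.2, 3.92 and 26.0 FPKM in DSS 1, 2 and 3, against 10.4, 10.2 and 10.3 FPKM in control 1, 2 and 3. DSS 3 lay above the controls, DSS 2 below them and DSS 1 just above. The coefficient of variation was 82.1% in DSS and 1.0% in control colon. The log2 fold change was 0.05 ± 0.55 SE (95% interval -1.26 to 1.37, limma adjusted p = 0.962), and it was below 0 without DSS 3 and with median-of-ratios or upper-quartile scaling, and 0.68 without DSS 2, so no direction is given.

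Fbn1, which encodes fibrillin-1 of the microfibrils that hold latent TGF-beta, had 6.76, 3.64 and 9.36 FPKM in DSS 1, 2 and 3, against 7.03, 5.89 and 5.50 FPKM in control 1, 2 and 3. As for Eln, DSS 3 was the highest sample and DSS 2 the lowest. The log2 fold change of Fbn1 was 0.02 ± 0.29 SE (95% interval -0.67 to 0.70, limma adjusted p = 0.977), with 0.33 without DSS 2 and a sign that changed under 7 of the 15 alternatives. Fbn1 lies on chromosome 2, 125300594 to 125507993 (- strand), and 20.1% of its exonic bases overlap the predicted gene Gm9913 on the opposite strand. Eln lies on chromosome 5, 134702593 to 134747323 (- strand). In all, exons of 6 of the 10 genes overlap those of another annotated gene, by 176 to 2442 bases. For 5 of them the other gene is on the opposite strand, and with a kit that does not record strand such reads cannot be told apart.

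**Figure D2:**
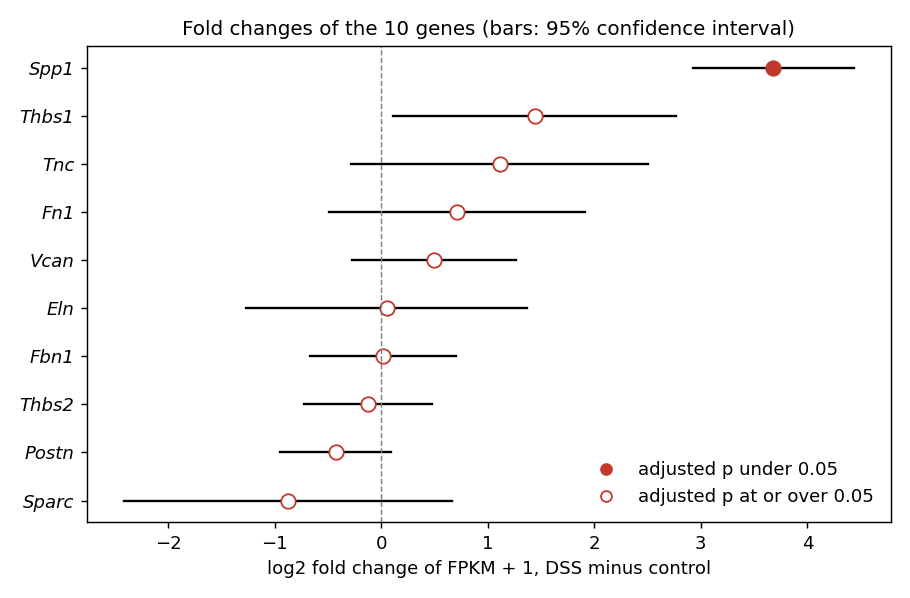
Log2 fold change of FPKM + 1, DSS minus control, for the 10 genes, with bars for the 95% confidence interval of the limma fit over 6 samples. The interval of Spp1 runs from 2.93 to 4.44 and that of Thbs1 from 0.11 to 2.77 before adjustment, and the other 8 intervals include 0.

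The DSS samples differed among themselves in these genes, mostly in 1 direction. DSS 2 was the lowest of the 3 DSS samples in 9 of the 10 genes, all but Spp1, whereas it was the lowest in 49.9% of all tested genes. Relative to the mean of the 3 controls, the median log2 difference over the 10 genes was 0.48, -0.51 and 1.01 for DSS 1, 2 and 3, beside 0.16, 0.04 and 0.20 over all tested genes. In DSS 1, 6 of the 10 genes lay above the range of the controls and 1 below it. DSS 2 had 1 gene, Spp1, above that range and 6 below it, which were Sparc, Thbs2, Postn, Fn1, Fbn1 and Eln. In DSS 3 the counts were 8 above and 1, Postn, below. Over all tested genes 48.8%, 39.9% and 51.7% lay above the control range in DSS 1, 2 and 3, and 18.0%, 33.7% and 21.6% below.

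Markers of stromal cells were set beside this pattern. The 8 smooth muscle markers, all tested and none called, summed to 1760, 1189 and 3370 FPKM in DSS 1, 2 and 3 and to 3544 to 4485 FPKM in control colon, so DSS 2 was the lowest sample and all DSS samples lay below the controls. The 9 fibroblast markers, of which 1 was called higher and 1 lower, summed to 767, 537 and 725 FPKM in DSS 1, 2 and 3 and to 525 to 648 FPKM in control colon. Sums follow the most abundant markers. The median log2 difference of the fibroblast markers from the control mean was -0.01, 0.02 and 0.31 in DSS 1, 2 and 3, so by this measure DSS 2 was not the lowest. For smooth muscle markers it was -1.26, -1.78 and -0.12, and for endothelial markers 0.25, -0.46 and 0.12. The 7 endothelial markers summed to 61.4, 32.7 and 62.1 FPKM in DSS 1, 2 and 3 and to 44.6 to 46.8 FPKM in control colon, with none called. Of 6 pericyte markers, 5 tested, 2 were called higher, and they summed to 62.8 to 83.2 FPKM in DSS colon and 33.2 to 40.5 FPKM in control colon. No marker of these 4 lists was at 0 in all samples. What these cells contributed to the 10 genes was not tested.

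Among the controls, control 1 was the highest in 8 of the 10 genes, beside 25.7% of all tested genes, the exceptions being Postn and Sparc. Its median log2 difference from the control mean was 0.28 over the 10 genes and -0.07 over all tested genes. Thbs1 had 39.9 FPKM in control 1, against 12.1 and 7.70 FPKM in the other controls.

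**Figure D3:**
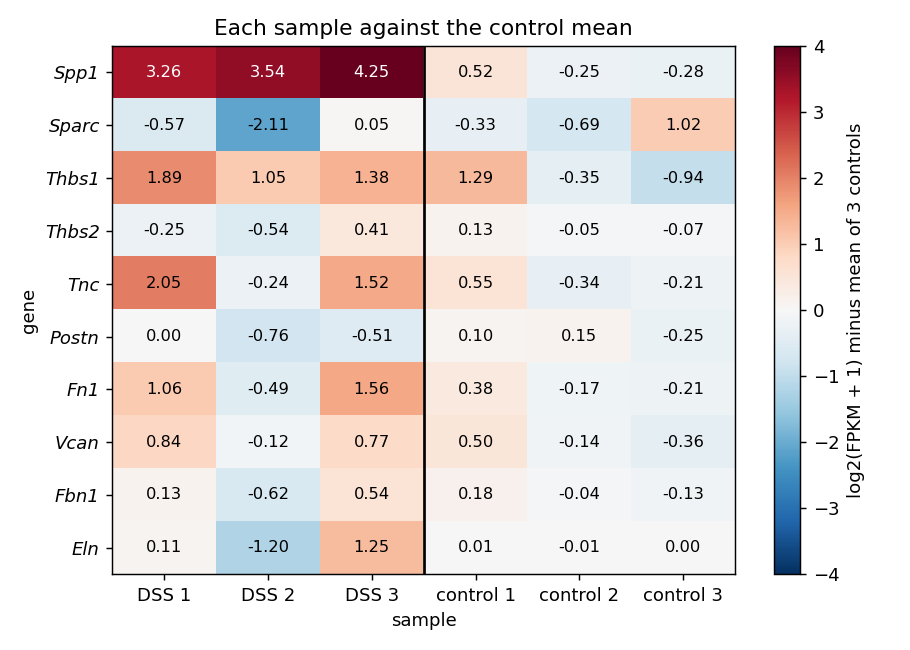
Log2(FPKM + 1) of each sample minus the mean of the 3 controls, for the 10 genes, with DSS samples left of the line and control samples right of it. Spp1 differs by 3.26, 3.54 and 4.25 in DSS 1, 2 and 3, while the DSS 2 column is below 0 in all other genes but Thbs1 (1.05).

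By level per length, Postn was the highest of the 10 genes in each of the 6 samples. In DSS colon the order of the means was Postn, Fn1, Thbs1, Tnc, Sparc, Spp1, Eln, Fbn1, Vcan and Thbs2, and every gene overlapped the next in its range over 3 samples. In control colon the order was Postn, Sparc, Fn1, Thbs1, Tnc, Eln, Fbn1, Thbs2, Vcan and Spp1. There Postn stood clear of Sparc, Eln of Fbn1, Fbn1 of Thbs2 and Vcan of Spp1, and the other 5 neighbouring pairs overlapped.

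Relatives and partners of the 10 genes were read from the same fit, in 9 related lists of 124 genes, of which 79 were tested. The counts per list below stand beside 6.34% called higher and 2.56% called lower over all tested genes. Some genes, such as Smoc1 and Itga8, reached 1 FPKM in 1 group alone and so entered the test only through the group where they were high. Among 8 tested thrombospondin, tenascin and CCN genes Tnxb fell, the gene of tenascin X, which organizes collagen fibrils. It had 2.5 ± 0.369 FPKM in DSS colon and 4.99 ± 0.202 FPKM in control colon (SD, n = 3 each, limma adjusted p = 0.0306), and Tnxa is a near-identical copy of it, so its value is uncertain. The median log2 fold change of these 8 was 0.35. Thbs4, which has the highest mean of this list over all 6 samples, had 87.5, 6.14 and 33.4 FPKM in DSS 1, 2 and 3, against 71.2, 84.4 and 85.3 FPKM in control 1, 2 and 3 (limma adjusted p = 0.288). Its log2 fold change was -1.54, against -0.55 without DSS 2 and -2.37 without DSS 1. Of 7 tested SPARC relatives and other matricellular genes Smoc1, a secreted calcium-binding relative of Sparc, rose to 2.91 ± 1.02 FPKM in DSS, against 0.546 ± 0.145 FPKM in control colon (limma adjusted p = 0.0146). In the same list Ecm1 fell to 13.8 ± 3.14 FPKM in DSS, against 26.5 ± 2.49 FPKM in control colon (limma adjusted p = 0.0306). The median log2 fold change there was 0.17, and Sparcl1, the most abundant of them, had 86.2 ± 31.6 FPKM in DSS colon and 123 ± 24.6 FPKM in control colon (limma adjusted p = 0.228). Tnxb lost its call without DSS 2 (adjusted p = 0.0538), DSS 3 (0.0712), control 1 (0.0899), control 2 (0.111) or control 3 (0.114). Smoc1 lost it without control 1 (0.0539), control 2 (0.0654) or control 3 (0.0723), and Ecm1 without DSS 3 (0.0892), control 1 (0.0915), control 2 (0.111) or control 3 (0.0850) and with no filter on low values (0.0546).

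Of 18 tested genes of microfibrils and of elastic fibre assembly, Mfap2 rose and Ltbp4 fell, with a list median log2 fold change of 0.13. These counts are near the 6.34% called higher and 2.56% called lower over all tested genes, whose median was also 0.13. Mfap2, a microfibril-associated glycoprotein that binds fibrillin and tropoelastin, had 5.49 ± 1.34 FPKM in DSS colon and 2.04 ± 0.272 FPKM in control colon (SD, n = 3 each, limma adjusted p = 0.0221). Ltbp4, which binds latent TGF-beta and helps elastin assemble with fibulin-5, had 6.39 ± 2.15 FPKM in DSS colon and 18.9 ± 1.09 FPKM in control colon (a log2 difference of -1.47 ± 0.24 SE, limma adjusted p = 0.0126). Efemp1, with the highest mean of this list over all 6 samples though not within DSS colon, had 20.6 ± 7.33 FPKM in DSS colon and 28.9 ± 1.67 FPKM in control colon (limma adjusted p = 0.241). Mfap2 lost its call without DSS 3, control 1, control 2 or control 3 (adjusted p up to 0.0880), and Ltbp4 without control 2 or control 3 (up to 0.0614).

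Of 4 tested lysyl oxidase genes, whose products cross-link elastin and collagen, Lox rose. It had 21.5, 13.8 and 37.1 FPKM in DSS 1, 2 and 3, against 1.35, 2.24 and 1.62 FPKM in control 1, 2 and 3 (log2 fold change 3.11 ± 0.34 SE, limma adjusted p = 0.00262). Loxl1, the relative tied to elastic fibres, had 12.8, 4.71 and 13.9 FPKM in DSS 1, 2 and 3, against 8.96, 8.90 and 9.42 FPKM in control 1, 2 and 3 (limma adjusted p = 0.928). The list median was 0.34. None of 6 tested fibrillar collagen genes was called (list median log2 fold change 0.66), and Col3a1, the most abundant of them, had 247 ± 123 FPKM in DSS colon and 128 ± 15.1 FPKM in control colon (limma adjusted p = 0.231). Without DSS 2, its lowest DSS sample, Col3a1 passed, with adjusted p = 0.0139 (0.0139 to 0.504 over all alternatives). Of 14 hyaluronan and hyalectan genes 2 were tested and none was called. They were Tnfaip6, which cross-links hyaluronan, at limma adjusted p = 0.0701, and Hyal2, a hyaluronidase, at 30.9 ± 1.95 FPKM in DSS colon and 26.0 ± 4.62 FPKM in control colon (limma adjusted p = 0.353), and their median log2 fold change was 0.57.

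Among 21 tested matrix receptor genes 3 rose and 2 fell, with a median log2 fold change of -0.01. Cd47, a receptor for thrombospondin-1, had 53.8 ± 3.47 FPKM in DSS colon and 22.8 ± 1.88 FPKM in control colon (SD, n = 3 each, with a log2 difference of 1.203 ± 0.14 SE, limma adjusted p = 0.00301). Cd44, the hyaluronan receptor that also binds osteopontin, had 20.0 ± 2.46 FPKM in DSS colon and 8.54 ± 1.97 FPKM in control colon (limma adjusted p = 0.0145). The collagen receptor subunit gene Itga2 rose to 2.79 ± 0.457 FPKM in DSS, against 0.711 ± 0.545 FPKM in control colon (limma adjusted p = 0.0291). Cd36, another thrombospondin receptor, fell to 2.88 ± 0.817 FPKM in DSS, against 8.73 ± 1.31 FPKM in control colon (limma adjusted p = 0.0118). Itga8, whose integrin binds fibronectin, osteopontin and tenascin C, fell to 0.372 ± 0.212 FPKM in DSS, against 1.54 ± 0.330 FPKM in control colon (limma adjusted p = 0.0313). Itgb1, with the highest mean of the receptor genes over all 6 samples though not within control colon, had 107 ± 14.9 FPKM in DSS colon and 82.6 ± 9.70 FPKM in control colon (limma adjusted p = 0.183). Single samples or settings decided some of these calls. Cd44 lost its call without DSS 3, control 2 or control 3 (adjusted p up to 0.0715), and Cd36 without control 1 or control 2 (up to 0.0643). Itga2 lost it without DSS 2, DSS 3, control 2 or control 3 (up to 0.116), with no filter on low values (0.0534) and under median-of-ratios scaling (0.0522), and Itga8 without DSS 2 or any control (up to 0.124).

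Of 13 tested genes for proteases known to cut elastin, versican, osteopontin or fibronectin, 7 rose and none fell, with a median log2 fold change of 0.97. The list was chosen with earlier results of these samples known. Mmp7, Mmp9 and Mmp12, all among those that rose, reached 1 FPKM in DSS colon alone. They entered the test only through that group, which tilts the count and the median upward. Mmp9 had 5.54 ± 1.06 FPKM in DSS colon and 0.791 ± 0.166 FPKM in control colon (SD, n = 3 each, limma adjusted p = 0.00206). Mmp3 had 38.3 ± 20.1 FPKM in DSS colon and 1.95 ± 0.912 FPKM in control colon (limma adjusted p = 0.00760), and the gene Gm15242 is a near-identical copy of it, so its value is uncertain. Ctsk, an elastin-cutting cathepsin, had 20.6 ± 2.497 FPKM in DSS colon and 7.84 ± 1.23 FPKM in control colon (limma adjusted p = 0.00575). Mmp2 had 39.9 ± 4.50 FPKM in DSS colon and 19.8 ± 0.566 FPKM in control colon (limma adjusted p = 0.00881, and 0.0523 without control 2). Mmp7, which cuts osteopontin and elastin, had 8.41, 37.2 and 25.0 FPKM in DSS 1, 2 and 3 and was listed at 0 in each control sample (limma adjusted p = 0.00304). Ctss, the most abundant of the list, had 341 ± 103 FPKM in DSS colon and 482 ± 19.8 FPKM in control colon (limma adjusted p = 0.175).

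**Figure D4:**
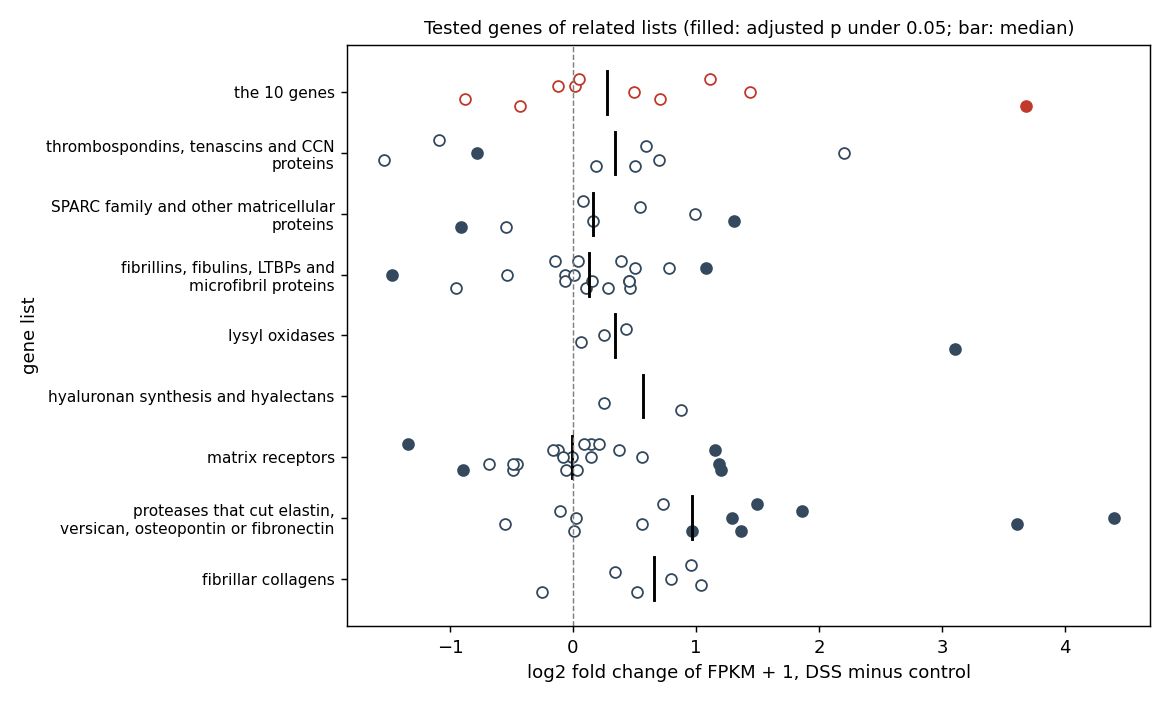
Log2 fold change of FPKM + 1, DSS minus control, for each tested gene of the 10 genes and of 8 related lists, filled where the limma adjusted p was under 0.05, with a bar at each list's median. The protease list has its median at 0.97, with Mmp7, Mmp9 and Mmp12 tested only through their DSS levels. The 10 genes have their median at 0.27, and the rightmost filled point among them is Spp1 at 3.68.

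The profiles closest to Spp1 over the 6 samples, by the root mean square difference of centred log2(FPKM + 1), were Il1r2 (0.325), Ifitm6 (0.330) and Lilr4b (0.340). Il1r2, the decoy receptor for interleukin-1, had 17.8, 35.2 and 31.7 FPKM in DSS 1, 2 and 3, against 1.44, 0.317 and 0.666 FPKM in control 1, 2 and 3. Like Spp1, all 3 were highest among the controls in control 1, a likeness that the choice by profile over these same samples favours. Lilr4b shares a near-identical stretch with Lilrb4a. The profiles closest to Sparc were less close, at 0.489 for Adam15, 0.497 for Acly and 0.508 for Aes. Aes had 200.3, 94.2 and 199 FPKM in DSS 1, 2 and 3, against 130, 150 and 298 FPKM in control 1, 2 and 3. Like Sparc it was highest in control 3 and lowest in DSS 2, which the choice by profile again favours.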

How the data were processed

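RNA of mouse colon was measured by sequencing in 3 DSS and 3 control samples. Per the labels' protocols, RNA was taken up in TRIZOL and poly(A)-selected, and the second-strand kit named is non-directional, so strand is treated as unrecorded. The authors deposited FPKM values for each gene symbol, per the file headers. The submitters' processing notes list TopHat2 2.1.1 and mm10. What program and annotation gave the FPKM values is not given in the sources used here. Whole reads could not be recovered from low values (1.21% at most of low genes in a bin of 0.02 log2 units of the ratio between samples), so depth is unknown and no counting interval is given.

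The test covered 12348 genes that reached 1 FPKM in 3 or more samples. The group difference of log2(FPKM + 1), unscaled, came from limma 3.58.1 (R 4.3.3, with trended and robust moderation, two-sided, Benjamini-Hochberg over all tested genes). The fit was also run on simulated data with independent spread per gene. Such data lack shifts shared by a whole sample, so no conclusion about these samples is drawn from that run. The 10 genes, the related lists and the marker lists were chosen with earlier results of these data known. All 10 were named, and of each related list up to 5 called genes with the smallest p and the most abundant gene. Dmp1, Loxl1, Tnfaip6, Ibsp, Dspp, Mepe and the genes under other observations were picked once their values had been seen. Gene positions come from GENCODE vM21 (GRCm38, which mm10 names). Near-identical copies were sought among its transcripts with BLAST+ 2.17.0 (95% identity or more over at least 200 bases). Upstream sequences are from RefSeq, GRCm38.p6. Plots used matplotlib 3.10.9 (Python 3.11.15). Values after ± are SDs unless named SE.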

Additional observations from a re-analysis of the deposited data

How the results depend on the processing

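Spp1 was the single member called under 13 of the 15 alternatives, which covered 2 pseudocounts, 2 filters, 3 scalings, plain moderation, the replicate number as a block and each sample left out. Leaving out each sample gave 1 to 3 members called higher and none called lower. Over all genes those fits called 209 to 1165 higher and 79 to 606 lower, and median-of-ratios scaling called 517 higher and 503 lower. Calls higher made up 71.2% of all calls, against 53.8% under upper-quartile and 50.7% under median-of-ratios scaling. Without the filter on low values 537 were called higher and 251 lower, among 19058 tested. Some uncalled log2 fold changes changed sign. Fbn1 had -0.029 under equal-sum, -0.10 under upper-quartile and -0.12 under median-of-ratios scaling and -0.25 to 0.33 with samples left out. Eln had -0.074 under upper-quartile and -0.10 under median-of-ratios scaling and -0.55 to 0.68 with samples left out. With samples left out Thbs2 had -0.39 to 0.082, Acly -0.75 to 0.19 and Aes -0.44 to 0.15. The causes were not tested. With the replicate block 640 genes were called higher and 255 lower, Spp1 stayed the called member, and Tnxb, Itga2 and Itga8 lost their calls. Same-numbered samples deviated together at correlations of 0.08, 0.13 and 0.00, and DSS 3 correlated best with control 1, so the numbers were not taken to pair the samples. Of 19 called genes named beside the members, 9 were called under every alternative. Both counts include Il1r2, Ifitm6 and Lilr4b, which were picked for profiles close to Spp1 over these same samples. The others were picked by smallest p, so these counts describe the picked genes alone. Depth is unknown, and the number of samples limits precision.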

Other observations

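Several relatives of the 10 genes were high or low in single samples, and are given as values chosen after they were seen. The CCN genes Cyr61 and Ctgf, which encode matricellular proteins of the same class, were highest among the controls in control 1, like Thbs1. Cyr61 had 6.80, 11.2 and 39.0 FPKM in DSS 1, 2 and 3, against 23.6, 4.98 and 6.48 FPKM in control 1, 2 and 3, and Ctgf had 24.0, 10.6 and 38.5 FPKM in DSS 1, 2 and 3, against 78.4, 38.9 and 34.0 FPKM in control 1, 2 and 3. Itga5, the fibronectin receptor subunit, had 13.5, 4.84 and 14.6 FPKM in DSS 1, 2 and 3, against 24.3, 6.15 and 8.32 FPKM in control 1, 2 and 3. Neither Cyr61, Ctgf nor Itga5 passed the test (limma adjusted p = 0.642, 0.203 and 0.911).

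Some related genes below the level for testing kept their groups apart, in both directions, and their share among such genes was not taken. Among tested genes 25.6% had every DSS sample above every control and 9.51% had every DSS sample below. The genes that follow are therefore given as values alone. Listed values near 0 can be failed estimates. Hapln1, Spock1, Itga11, Sspo and Adamts20 had DSS below control, and Adamtsl2, Loxl4, Bcan, Adamts5, Cemip, Has1 and Prtn3 had DSS above control. Hapln1 had 0.371, 0.423 and 0.380 FPKM in DSS 1, 2 and 3, against 0.803, 0.963 and 0.656 FPKM in control 1, 2 and 3. Cemip, a hyaluronan-degrading protein, had 8.16, 0.877 and 2.06 FPKM in DSS 1, 2 and 3, against 0.311, 0.0629 and 0.104 FPKM in control 1, 2 and 3. Has1, a hyaluronan synthase, had 0.419, 1.43 and 0.801 FPKM in DSS 1, 2 and 3, against 0.283, 0.110 and 0.0527 FPKM in control 1, 2 and 3. Prtn3, a neutrophil serine protease, had 0.761, 1.21 and 1.46 FPKM in DSS 1, 2 and 3, against 0.0428, 0.0864 and 0.395 FPKM in control 1, 2 and 3. Ltbp2, a relative of Ltbp4, had 0.9995, 0.0637 and 1.04 FPKM in DSS 1, 2 and 3, against 0.0740, 0.0496 and 0.0566 FPKM in control 1, 2 and 3, so it overlapped through DSS 2. The CCN gene Wisp2 was tested and had 4.64, 2.14 and 15.5 FPKM in DSS 1, 2 and 3, against 0.206, 0.542 and 0.591 FPKM in control 1, 2 and 3 (limma adjusted p = 0.0544). Its groups did not overlap, but it entered the test only through its DSS levels, so the filter fixed that in advance.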
